A study of Mus musculus with 6 samples.

Results

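The 38 genes described here encode the machinery that copies chromosomal DNA and the switch that commits a cell to copying it, the G1/S transition. They were chosen by symbol and matched through Ensembl identifiers to the 57132 genes of a count table for mouse bone marrow-derived dendritic cell cultures. All 38 were found, and all 38 were among the 10554 genes that passed a filter on low counts. The groups were 100Q, cultures given 100 nM queuine, and 0Q, cultures in queuine-free medium, each with 3 mRNA-seq libraries. Queuine is the base that cells build into queuosine, a modified nucleoside in the anticodons of the transfer RNAs for asparagine, aspartate, histidine and tyrosine. Both groups were marrow of female C57BL/6 mice aged 6 to 8 weeks, grown in dialyzed serum with the cytokine GM-CSF at 15 ng/mL, fed on days 2 and 4 and harvested on day 5. Cells were plated in triplicate and separate animals are not mentioned. The p-values here therefore set the difference between groups only against the spread among such cultures, and that spread may be technical. Proliferation is 1 of the subjects in the series title; cell division itself was not measured by these libraries.

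Before DNA is copied, the origin recognition complex, Cdc6 and Cdt1 load a ring of 6 Mcm proteins onto DNA, a step called licensing. At the start of S phase Cdc45 and the GINS complex join the ring to form the working helicase. Primase and DNA polymerase alpha then lay down primers, the sliding clamp PCNA holds the main polymerases on the template, and flap endonuclease and DNA ligase join the pieces. Many of these genes are transcribed in late G1 by E2F factors, which the retinoblastoma protein restrains and which cyclin E kinase helps to release. In GM-CSF cultures of marrow, proliferating myeloid precursors give rise to largely non-dividing macrophage-like, dendritic and granulocytic cells.

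Replication genes were expressed in every library and none passed the test for a difference between 100Q and 0Q. With edgeR's quasi-likelihood test, 0 of the 38 passed an adjusted p of 0.05, and each had an adjusted p of 0.999, against 0% of all 10554 tested genes. At an unadjusted p under 0.05 the count was again 0 of 38, where 309 of all tested genes, 2.93%, reached it. DESeq2 and limma-voom also called 0 of the 38. The smallest unadjusted p among them, 0.0784, belonged to Prim1.

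The estimates leaned slightly low. Of the 38 log2 fold changes for 100Q over 0Q, 27 were below 0 and 11 above, where 50% of all tested genes were below 0. Their median was -0.06, against 0.00 for all tested genes, and they ran from -0.61 for Ccne2 to 0.37 for Gins3. The 38 genes were read in the same 6 libraries, so their signs are not independent. Among libraries of the same group, the median deviation of the 38 genes from their own means had a pooled SD of 0.07 on the log2 scale. In 3 genes, Mcm3, Mcm4 and Rrm2, every 100Q library lay below every 0Q library. That is 7.89% of the 38, where 8.24% of all tested genes had groups that did not overlap in either direction. Which genes were apart depended on the scaling between libraries, since Mcm3 and Mcm4 overlapped when library totals alone were used and only Rrm2 stayed apart. Summed over the 38 genes, the level was 2181, 2043 and 2309 CPM, counts scaled to library size, in 100Q replicates 1, 2 and 3, against 2539, 2194 and 2306 CPM in 0Q replicates 1, 2 and 3. The 100Q mean was 2178 ± 133 CPM and the 0Q mean 2346 ± 176 CPM (± SD over 3 libraries, as everywhere here), and on this scale the groups overlapped. With library totals alone the summed levels lay apart by a very small gap, so their overlap depended on the scaling. Without 0Q replicate 1, the highest library, the difference of -168 CPM became -72.1 CPM. In such bulk samples, fewer cycling cells and less RNA per cycling cell cannot be told apart.

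For 28 of the 38 the 95% confidence interval of the fold change lay within 2-fold in either direction, for 14 it lay within 1.5-fold, and for 0 within 1.2-fold. All 6 genes with a mean of at least 100 CPM, Pcna, Rrm2, Rrm1, Tyms, Mcm7 and Cdc45, were bounded within 1.5-fold. Among the other 32 genes, 8 were bounded within 1.5-fold and 22 within 2-fold. The polymerase genes Pold1 and Pole, the transcription factor gene E2f1, the origin recognition gene Orc1, the GINS gene Gins3 and the chromatin assembly gene Chaf1b were under 10 CPM; their intervals all reached past 2-fold, so a difference of that size cannot be told from none in them.

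**Figure D1:**
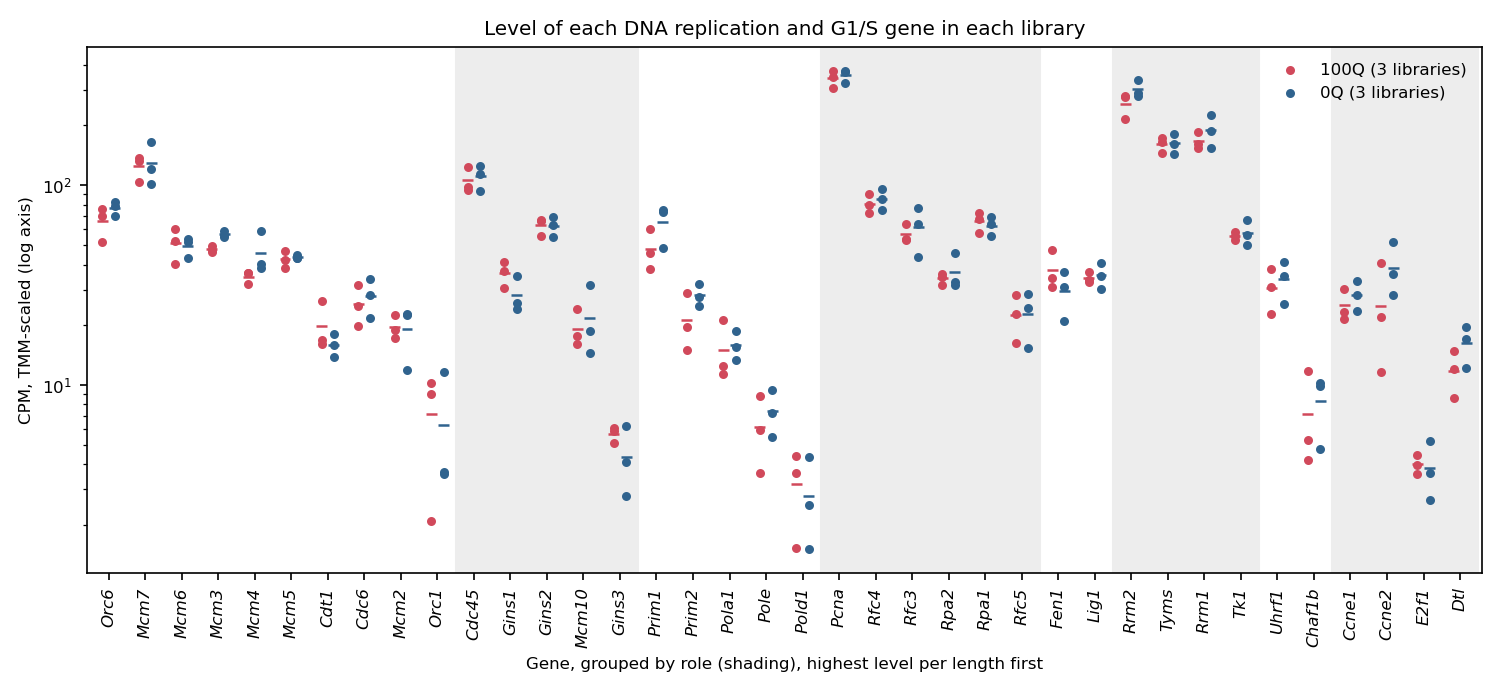
Level of each of the 38 genes in each of the 6 libraries, in TMM-scaled CPM on a log axis, with 100Q and 0Q libraries in separate colours, short lines for the group means and shading for the role groups. For all but Mcm3, Mcm4 and Rrm2 the 100Q and 0Q ranges overlap, and the levels run from Pcna at 308 to 373 CPM to Pold1 at 1.51 to 4.42 CPM.

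E2F-type letters were found in the promoters of some of these genes. In RefSeq windows on GRCm38.p6, from 250 bases before to 50 bases after a gene's start, 32 of the 38 genes had an entry. An E2F-type motif (TTTGGCGC, TTTCCCGC, TTTGCCGC or TTTCGCGC on either strand) was found in 14 of those 32, 43.8%, against 690 of 26993 other genes, 2.56%, and 374 of 7805 other tested genes, 4.79%. Among other tested genes with a window within 5 percentage points of the median GC content of the members' windows, the share was 5.14%. Taken per gene, the members' median GC content was 61.5%. A CCAAT box on either strand was present in 20 of the 32, 62.5%, against 43.4% of the other tested genes. The 20 E2F-type matches began between 185 bases before and 40 bases after the start, 12 of them within 60 bases of it. Such a match is a string of letters and not a measured binding site.

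The windows printed next show how the motif sits in genes of different roles: the helicase subunits Mcm6 and Mcm3, the clamp loader subunit Rfc3, the ubiquitin ligase adaptor Dtl and the origin recognition subunit Orc1. Each is 120 bases read 5′ to 3′ on the gene's own strand, and capitals mark E2F-type motifs and CCAAT boxes in either orientation. In Mcm6, whose window is chr1:128359726-128359845 on the minus strand, 2 matches overlap at its upstream end and another match stands nearer the start. The Mcm3 window is chr1:20820283-20820402 on the minus strand, and a second Mcm3 match begins 39 bases after the start, beyond the stretch shown. The Rfc3 window, chr5:151651179-151651298 on the minus strand, has 2 matches side by side at the start. The Dtl window is chr1:191575515-191575634 on the minus strand and the Orc1 window is chr4:108579364-108579483 on the plus strand.
Mcm6: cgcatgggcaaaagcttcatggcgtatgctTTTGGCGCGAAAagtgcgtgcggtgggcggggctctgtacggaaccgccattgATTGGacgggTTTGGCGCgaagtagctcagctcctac
Mcm3: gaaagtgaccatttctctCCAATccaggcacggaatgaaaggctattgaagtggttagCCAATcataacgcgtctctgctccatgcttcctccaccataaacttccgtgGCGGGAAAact
Rfc3: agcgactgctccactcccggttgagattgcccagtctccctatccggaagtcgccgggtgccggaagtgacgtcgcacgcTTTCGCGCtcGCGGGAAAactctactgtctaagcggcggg
Dtl: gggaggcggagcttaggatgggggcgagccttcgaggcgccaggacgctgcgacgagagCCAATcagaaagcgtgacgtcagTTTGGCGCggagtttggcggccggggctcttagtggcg
Orc1: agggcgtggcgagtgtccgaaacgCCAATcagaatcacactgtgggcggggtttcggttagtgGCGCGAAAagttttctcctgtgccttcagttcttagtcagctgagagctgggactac

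The 14 genes with an E2F-type match and the 18 without one both leaned below 0. In the first set 9 of 14 estimates were below 0 and their median was -0.05 on the log2 scale, while in the second 14 of 18 were below 0 and their median was -0.07. Neither set holds a called gene.

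**Figure D2:**
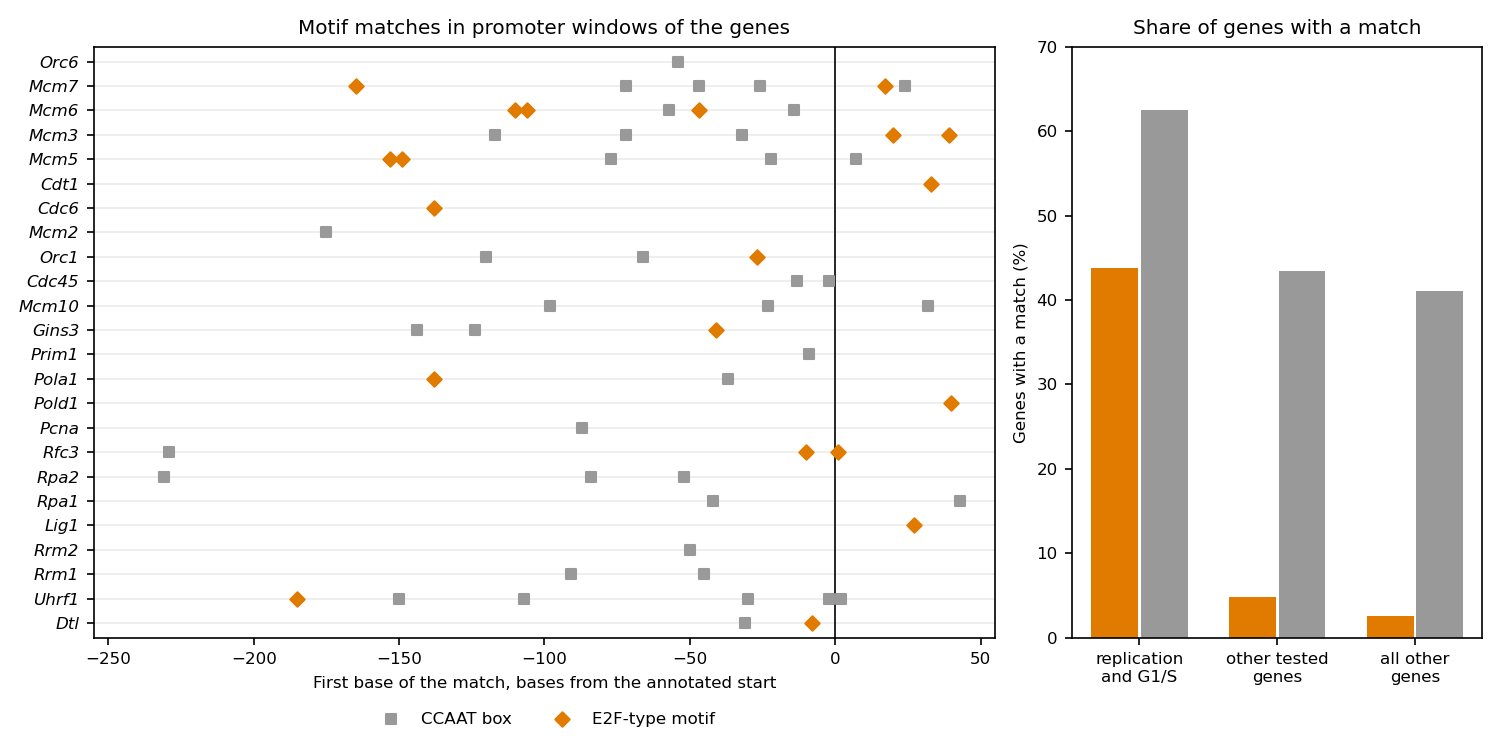
Left, first base of each E2F-type motif (orange diamonds) and CCAAT box (grey squares) in RefSeq promoter windows, in bases from the annotated start, for the genes with a match; genes with several windows share a line. Right, percent of genes with a match, 43.8% for E2F-type motifs in the replication and G1/S genes, against 4.79% of other tested genes and 2.56% of all other genes.

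The 10 licensing genes summed to 438 ± 19.2 CPM in the 100Q libraries (425 to 460.2) and to 471 ± 24.5 CPM in the 0Q libraries (444 to 493), ranges that overlapped. Their log2 fold changes were positive in 4 and negative in 6, and the median was -0.04. Mcm3 (ENSMUSG00000041859, chromosome 1, 20870791 to 20890536 in GRCm39), one subunit of the helicase ring, had 46.4, 49.7 and 47.4 CPM in 100Q, against 55.0, 56.6 and 58.9 CPM in 0Q. Its groups were apart and tight, at 47.8 ± 1.70 CPM in 100Q and 56.8 ± 1.98 CPM in 0Q. The log2 fold change of Mcm3 was -0.25 (SE 0.20, 95% interval -0.66 to 0.17), with an unadjusted p of 0.226 in edgeR's quasi-likelihood test, which shares its estimate of spread across genes.

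Mcm4 (chromosome 16, 15440211 to 15455264), another subunit of the ring, had 36.3, 36.4 and 31.9 CPM in 100Q, against 40.2, 58.8 and 38.6 CPM in 0Q. The groups did not overlap, but 36.4 CPM in 100Q and 38.6 CPM in 0Q nearly met, and 0Q replicate 2 stood above the other 5 libraries. Its log2 fold change was -0.40 (SE 0.24, edgeR unadjusted p 0.109), and -0.19 without that library. Mcm2 (chromosome 6, 88860452 to 88875762) had 22.4, 18.7 and 17.2 CPM in 100Q, against 11.9, 22.6 and 22.5 CPM in 0Q, where replicate 1 was low. Its 100Q mean was 19.5 ± 2.70 CPM, its 0Q mean 19.0 ± 6.14 CPM, and its log2 fold change was 0.03 (SE 0.33).

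The remaining ring subunits had overlapping groups and estimates near 0. Mcm5 (chromosome 8, 75836140 to 75856231) had 42.4, 38.3 and 46.9 CPM in 100Q, against 44.8, 43.0 and 43.3 CPM in 0Q; its log2 fold change was -0.03 (SE 0.22). Mcm6 (chromosome 1, 128259311 to 128287516), whose window above holds 3 matches, had 40.5, 60.7 and 52.4 CPM in 100Q, against 43.1, 53.9 and 52.2 CPM in 0Q; its log2 fold change was 0.04 (SE 0.22). Mcm7 (chromosome 5, 138162844 to 138170684) had 132, 104 and 136 CPM in 100Q, against 164, 121 and 101 CPM in 0Q. The 0Q group held both the highest and the lowest Mcm7 library, and the log2 fold change was -0.05 (SE 0.18). As a set, the 6 ring subunits summed to 320.0 ± 12.0 CPM in 100Q and 344 ± 23.4 CPM in 0Q.

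Among the loaders, Orc6, a subunit of the origin recognition complex, had 52.1, 76.0 and 70.02 CPM in 100Q, against 82.2, 70.4 and 78.3 CPM in 0Q. The groups overlapped, and its log2 fold change was -0.22 (SE 0.19). Cdc6, which brings the Mcm ring to origins, had a log2 fold change of -0.13 (SE 0.29). Cdt1, its partner in loading, had one of 0.31 (SE 0.33) and Orc1 one of 0.23 (SE 0.62). These 3 genes also had overlapping groups, and Orc1 spread from 2.09 to 10.3 CPM within 100Q and from 3.59 to 11.7 CPM within 0Q.

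The 5 genes that turn the loaded ring into a working helicase summed to 229.8 ± 23.9 CPM in 100Q and to 228 ± 33.0 CPM in 0Q. Cdc45 (chromosome 16, 18599195 to 18631551), which binds the ring at the start of S phase, had 98.5, 94.995 and 123 CPM in 100Q, against 125, 114 and 93.9 CPM in 0Q. The groups overlapped across their whole span, with a log2 fold change of -0.07 (SE 0.17). Gins1 (chromosome 2, 150747320 to 150773202), a GINS subunit, was higher on average in 100Q, with 41.1, 30.5 and 37.4 CPM there, against 25.7, 35.1 and 23.9 CPM in 0Q. One 0Q library lay inside the 100Q range, and the log2 fold change of 0.36 (SE 0.26, 95% interval -0.19 to 0.91) had an edgeR unadjusted p of 0.185. The other GINS genes, Gins2 and Gins3, had log2 fold changes of 0.00 (SE 0.19) and 0.37 (SE 0.55), and Mcm10, which helps to activate the helicase, one of -0.18 (SE 0.34).

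The 5 polymerase and primase genes summed to 93.6 ± 21.3 CPM in 100Q and to 119.9 ± 17.5 CPM in 0Q; 4 of their 5 estimates were below 0. Prim1 (ENSMUSG00000025395, chromosome 10, 127851031 to 127867682), the catalytic subunit of primase, had 45.8, 37.9 and 60.6 CPM in 100Q, against 75.4, 48.2 and 73.6 CPM in 0Q. The lowest 0Q library, replicate 2, fell inside the 100Q range. The log2 fold change of Prim1 was -0.44 (SE 0.23, 95% interval -0.93 to 0.06). Prim2, which encodes the regulatory subunit of primase, had 15.0, 19.6 and 28.9 CPM in 100Q, against 27.6, 24.8 and 31.9 CPM in 0Q. Its groups overlapped too, and its log2 fold change was -0.39 (SE 0.30, edgeR unadjusted p 0.215). Pola1, Pole and Pold1, catalytic subunits of polymerases alpha, epsilon and delta, had log2 fold changes of -0.06 (SE 0.36), -0.27 (SE 0.50) and 0.15 (SE 0.77).

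The clamp, its loader and the single-strand binding protein RPA, 6 genes, summed to 603 ± 47.3 CPM in 100Q and 624 ± 59.3 CPM in 0Q. Pcna (ENSMUSG00000027342, chromosome 2, 132091082 to 132095234), the sliding clamp, had 371, 308 and 349 CPM in 100Q, against 373, 324 and 367 CPM in 0Q. Its groups overlapped almost fully, and it had the narrowest interval of the 38, a log2 fold change of -0.05 with a 95% interval of -0.31 to 0.21. Rfc3, a clamp loader subunit, had 64.3, 53.9 and 53.0 CPM in 100Q, against 77.1, 43.9 and 63.6 CPM in 0Q, with the 100Q libraries inside the 0Q range and a log2 fold change of -0.11 (SE 0.22). The loader genes Rfc4 and Rfc5 had log2 fold changes of -0.08 (SE 0.18) and -0.01 (SE 0.32), and the RPA genes Rpa1 and Rpa2 had 0.07 (SE 0.19) and -0.10 (SE 0.25).

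Fen1 (chromosome 19, 10176479 to 10182097), the endonuclease that trims flaps between lagging-strand fragments, had 30.8, 47.4 and 34.3 CPM in 100Q, against 21.0, 30.7 and 36.9 CPM in 0Q. Its groups overlapped, with a log2 fold change of 0.34 (SE 0.28), which was 0.14 without 100Q replicate 2 and 0.15 without 0Q replicate 1. Exons of Tmem258 and a predicted gene cover 65.9% of the annotated Fen1 exon bases, and the strandedness of the libraries is not given in the sources used here, so their reads cannot be told apart. The same holds for overlaps in other members, such as 67.3% of exon bases in Gins2, 41.4% in Rfc5, 29.0% in Rfc4 and 20.8% in Pcna. Lig1, the ligase that seals the fragments, had a log2 fold change of -0.05 (SE 0.24).

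All 4 nucleotide supply genes had estimates below 0, none of them past the threshold, and together they summed to 638 ± 50.4 CPM in 100Q and 709 ± 82.5 CPM in 0Q. Rrm2 (ENSMUSG00000020649, chromosome 12, 24757811 to 24764145), the S-phase subunit of the ribonucleotide reductase that makes deoxyribonucleotides, had 275, 214 and 279 CPM in 100Q, against 338, 279.5 and 288 CPM in 0Q. The highest 100Q library and the lowest 0Q library were almost level, so the separation of the groups rests on a very small gap, and it was lost with upper-quartile scaling. Its log2 fold change was -0.24 (SE 0.14, 95% interval -0.53 to 0.05), with an edgeR unadjusted p of 0.104. A predicted gene covers 43.3% of the Rrm2 exon bases. Rrm1, the large subunit of the same enzyme, had 153, 161 and 184 CPM in 100Q, against 225, 153 and 186 CPM in 0Q, where replicate 1 was high, and its log2 fold change was -0.18 (SE 0.16). Tyms, thymidylate synthase, and Tk1, thymidine kinase, had log2 fold changes of -0.01 (SE 0.15) and -0.05 (SE 0.20).

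At the chromatin of the fork, Uhrf1 (chromosome 17, 56610275 to 56630489), which recognises hemimethylated DNA and recruits the maintenance methyltransferase, had 22.6, 37.9 and 30.8 CPM in 100Q, against 41.4, 35.1 and 25.6 CPM in 0Q. The groups overlapped and the log2 fold change was -0.17 (SE 0.28). Chaf1b, a subunit of the histone chaperone that rebuilds nucleosomes behind the fork, had a log2 fold change of -0.23 (SE 0.52).

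Of the 4 G1/S control genes, Ccne2 had the lowest estimate among all 38. Ccne2 (ENSMUSG00000028212, chromosome 4, 11190303 to 11204947), a cyclin E that activates Cdk2, had 21.9, 11.6 and 41.0 CPM in 100Q, against 51.9, 35.8 and 28.1 CPM in 0Q. The groups overlapped because 100Q replicate 3, the most deeply sequenced library, was higher than 0Q replicates 2 and 3. The log2 fold change of Ccne2 was -0.61 (SE 0.36, 95% interval -1.38 to 0.15), with an edgeR unadjusted p of 0.110. Without 100Q replicate 3 the estimate was -1.21, with an edgeR unadjusted p of 0.00593 and no adjusted call, while it was -0.29 without 100Q replicate 2 and -0.34 without 0Q replicate 1. Ccne1, the other cyclin E gene, had 30.2, 21.5 and 23.3 CPM in 100Q, against 33.2, 23.4 and 28.3 CPM in 0Q, overlapping groups with a log2 fold change of -0.18 (SE 0.28). Dtl, which directs Cdt1 to destruction in S phase, and E2f1 had log2 fold changes of -0.45 (SE 0.36) and 0.06 (SE 0.62).

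**Figure D3:**
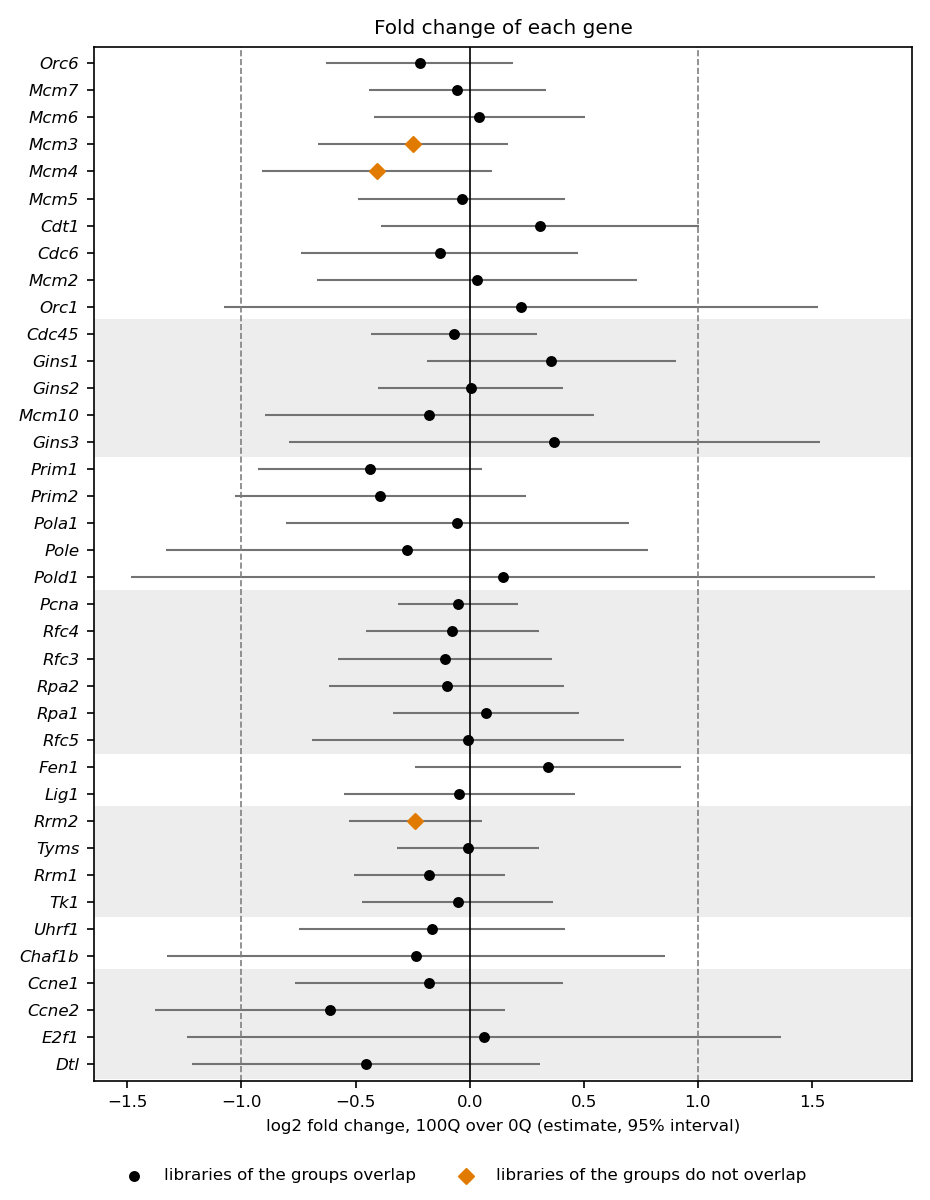
Log2 fold change of each of the 38 genes for 100Q over 0Q from edgeR, with 95% confidence intervals as bars, shading for the role groups, dashed lines at 2-fold and diamonds for Mcm3, Mcm4 and Rrm2, whose groups do not overlap. All 38 intervals include 0, and they widen from Pcna (-0.31 to 0.21) to Pold1 (-1.48 to 1.78).

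Levels of different genes were compared per length, as counts per kilobase of annotated exon scaled to the same total in every library. On that scale Pcna was highest of the 38, with a mean of 328 over the 6 libraries, followed by Rrm2 at 189, Rfc4 at 84.4 and Orc6 at 64.0. At the low end stood Dtl at 2.30, Pole at 1.27 and Pold1 at 1.16. Of the 37 pairs of neighbours in this order only 3 had ranges over the 6 libraries that did not overlap, Pcna over Rrm2, Rrm2 over Rfc4 and Rfc4 over Orc6, so most of the order is not resolved. With canonical transcript lengths Pcna and Rrm2 kept places 1 and 2, but Tyms took place 3, Rfc4 place 4 and Orc6 place 7. The places of Rfc4 and Orc6 thus depend on the length used, and exons of other genes cover 29.0% of the Rfc4 exon bases. Pcna per length averaged 328 ± 25.9 in the 100Q libraries and 328 ± 6.42 in the 0Q libraries.

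Within the helicase ring, whose subunits are assembled in equal numbers, transcript levels per length were unequal. Mcm7 was the highest and Mcm2 the lowest of Mcm2 to Mcm7 in all 6 libraries. Exons of other genes cover 15.4% of the Mcm7 exon bases and 0% of those of Mcm2, so part of the Mcm7 level may belong to other genes. Mcm7 exceeded Mcm2 by 8.28, 7.85 and 11.2 times in 100Q replicates 1, 2 and 3, against 19.5, 7.54 and 6.36 times in 0Q replicates 1, 2 and 3. The ratio of 19.5 in 0Q replicate 1 came with the lowest Mcm2 and the highest Mcm7 level of the 6 libraries. With canonical transcript lengths the ratio ran from 5.13 to 15.7. Levels per length assume that reads spread over the whole transcript, which the sources used here do not state. Across 9554 tested genes counts did not rise with transcript length, with a Spearman rho of -0.18, so order among genes of unequal length is uncertain. Under canonical lengths Tk1 moved from place 16 to place 8 and Prim2 from place 27 to place 18.

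Library by library, 0Q replicate 1 stood highest. For 16 of the 38 genes 0Q replicate 1 was the highest of the 6 libraries, while each other library was highest for 2 to 7 genes. The members' median log2 deviation from each gene's own mean was -0.08, -0.10 and 0.05 in 100Q replicates 1, 2 and 3, against 0.10, 0.01 and 0.04 in 0Q replicates 1, 2 and 3. The deepest library, 100Q replicate 3, was by this median closer to the 0Q libraries in these genes than to the other 100Q libraries. Over all tested genes the same median was 0.00 in 0Q replicate 1 and 0.02 to 0.03 in the other libraries. The TMM scaling factor of 0Q replicate 1, 0.929, was the lowest. Its deviations over 9554 tested genes also fell with transcript length (Spearman rho -0.21), against -0.04 to 0.15 in the other libraries. What part these have in its values was not tested. Library totals were 5296149, 4484785 and 19386533 counts in 100Q, against 5720248, 6755367 and 3675918 counts in 0Q. A floor of 3 counts equalled 0.159 to 0.632 CPM in 100Q and 0.423 to 0.833 CPM in 0Q, and the lowest count behind any member's value in a library was 8. Such floors cover counting error only.

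The 27 mitosis and G2/M genes, which mark the later phases of the cycle, summed to 2104 ± 162 CPM in 100Q and to 2187 ± 223 CPM in 0Q; their highest library was again 0Q replicate 1. Their estimates were above 0 in 11 and below 0 in 16, the median was -0.01, and 0 were called. Birc5, survivin, had 352, 336 and 360 CPM in 100Q, against 409, 325 and 355 CPM in 0Q. Nusap1, a spindle protein, had 165, 111 and 189 CPM in 100Q, against 241, 174 and 152 CPM in 0Q, and Kif23, a cytokinesis motor, had 41.1, 25.5 and 36.5 CPM in 100Q, against 30.2, 48.1 and 46.7 CPM in 0Q. All 3 of these genes had overlapping groups.

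Marker genes described which cells the RNA came from. The labelled dendritic cell type had its MHC class II gene H2-Aa at 482 to 666 CPM and Zbtb46, a transcription factor of classical dendritic cells, at 0.556 to 3.16 CPM over the 6 libraries. Itgax, the integrin gene CD11c of dendritic cells, had 149.996, 147 and 123 CPM in 100Q, against 67.6, 115 and 113 CPM in 0Q. Every 100Q library was above every 0Q library, with a log2 fold change of 0.51 (SE 0.19), an edgeR unadjusted p of 0.0174 and an adjusted p of 0.999. Of the 9 dendritic cell markers 8 were tested, and 6 of those 8 estimates were above 0, with a median of 0.35. Itgax was the only 1 of the 8 whose groups were apart, where 8.24% of all tested genes had groups that did not overlap. Their sum, most of it from the MHC class II genes, was 912 to 1009 CPM in 100Q and 860.1 to 1008 CPM in 0Q. The 6 granulocyte precursor markers, which mark a dividing population, summed to 1206 to 1426 CPM in 100Q and 1408 to 1859 CPM in 0Q, with 5 of 6 estimates below 0 and a median of -0.23. The 9 neutrophil markers summed to 13656 to 16723 CPM in 100Q and 16473 to 19103 CPM in 0Q, with 8 of 9 estimates below 0 and a median of -0.22. In 3 of these 9 the groups were apart, each lower in 100Q, and 3 had an edgeR unadjusted p under 0.05. The smallest, 0.0062 for Camp, was below that of Itgax and also had an adjusted p of 0.999. Mast cell and basophil markers, 5 genes that were all below 0, summed to 340.4 to 439 CPM in 100Q and 446 to 502 CPM in 0Q. Those groups did not overlap on this scale, by a small gap, but they did overlap with library totals alone.

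The 8 macrophage and monocyte markers summed to 18528 to 22332 CPM in 100Q and 18540.2 to 20658 CPM in 0Q, with 4 estimates above 0 and 4 below. Erythroid, stem and progenitor, and B cell markers each summed to under 100 CPM in every library, and Klf1 of the first list and Mecom of the second were at 0 throughout. T and NK cell markers reached at most 0.632 CPM in 100Q and 0.556 CPM in 0Q, with Cd3e at 0 in all 6. No gene on any marker list was called with edgeR. The granulocyte precursor, neutrophil, mitosis and replication sums all peaked in 0Q replicate 1, and the part of the cell types marked by these lists in the replication values was not tested.

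**Figure D4:**
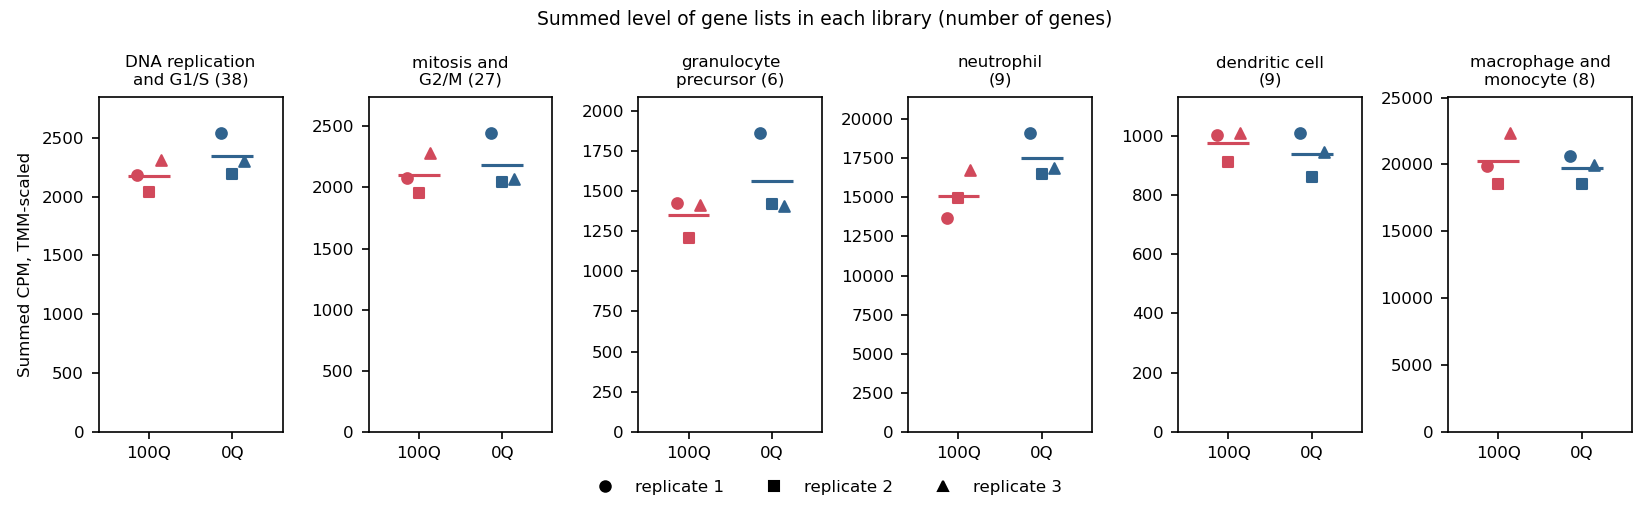
Summed CPM per library for the 38 replication and G1/S genes, the mitosis genes and the granulocyte precursor, neutrophil, dendritic cell, and macrophage and monocyte markers, with a symbol per replicate and lines for the group means. Replication sums of 2043 to 2309 CPM in 100Q overlap with 2194 to 2539 CPM in 0Q, and 0Q replicate 1 is the highest point for replication, mitosis, granulocyte precursor and neutrophil genes.

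The rest of the pathway gave the same count of calls. Of 48 further replication genes 47 were tested, 0 were called, 25 estimates lay above 0 and 22 below 0, and the median was 0.03. Tipin, which protects stalled forks with Timeless, had 103, 116 and 112 CPM in 100Q, against 144, 139 and 132 CPM in 0Q. The Tipin groups were apart, with a log2 fold change of -0.33 (SE 0.15) and an edgeR unadjusted p of 0.0408, but an adjusted p of 0.999. Dctd, a deaminase of the dTMP pathway, had 6.08, 14.7 and 8.24 CPM in 100Q, against 3.78, 3.24 and 6.39 CPM in 0Q, which overlapped slightly, with a log2 fold change of 1.13 (SE 0.52). Rpa3, the smallest RPA subunit, had 147, 168 and 163 CPM in 100Q, against 134, 157 and 168 CPM in 0Q.

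Of 32 further G1/S regulators 30 were tested, and 0 were called; 12 estimates lay above 0 and 18 below 0, and the median was -0.04. The genes of the inhibitors p57 (Cdkn1c) and p16 and p19ARF (Cdkn2a) were at 0 in every library. Cdkn2c, the Cdk4 and Cdk6 inhibitor p18, had 14.1, 2.74 and 8.67 CPM in 100Q, against 13.4, 18.2 and 20.6 CPM in 0Q. Those groups overlapped through 100Q replicate 1, and the log2 fold change was -1.02 (SE 0.46) with an edgeR unadjusted p of 0.041 and an adjusted p of 0.999. Ccnh, the cyclin of the Cdk-activating kinase, had 58.2, 43.8 and 83.2 CPM in 100Q, against 95.2, 71.6 and 89.4 CPM in 0Q, overlapping groups with a log2 fold change of -0.45 (SE 0.22). Cks1b, which helps Skp2 to target p27, had 213, 263 and 259 CPM in 100Q, against 277, 234 and 236 CPM in 0Q.

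Queuosine-carrying transfer RNAs read codons of the form NAU and NAC, for asparagine, aspartate, histidine and tyrosine. In the longest coding sequences of the 38 genes, the median share of NAU among these codons was 46.6%, from 23.4% in Pold1 to 72.5% in Rfc4, the clamp loader subunit. Over 8759 tested genes with at least 20 such codons the median was 44.0%, with quartiles of 35.3% and 53.7%, so the replication genes spanned much of the range of all genes and 17 of 38 were under the median. NAU and NAC codons together made up a median of 14.1% of the members' codons and 13.9% of those of all these genes. Against the NAU share, log2 fold changes gave a rank correlation (Spearman rho) of -0.31 over the 38 genes and -0.04 over the 8759, descriptions over genes that share the same 6 libraries.

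Stretches of 40 codons from canonical transcripts are printed for the members with the lowest and highest NAU share, and for the abundant Rrm2. In each gene the stretch richest in NAU plus NAC codons was taken. Its NAU share can therefore differ from that of the whole coding sequence. The stretches are 120 bases of coding sequence read from GRCm39 in frame, 5′ to 3′, and capitals mark NAU and NAC codons, written with T for U. Codons 364 to 403 of Pold1 (chromosome 7, minus strand) hold 1 NAU and 9 NAC codons, codons 285 to 324 of Rfc4 (chromosome 16, minus strand) hold 8 NAU and 3 NAC codons, and codons 87 to 126 of Rrm2 (chromosome 12, plus strand) hold 5 NAU and 4 NAC codons.
Pold1: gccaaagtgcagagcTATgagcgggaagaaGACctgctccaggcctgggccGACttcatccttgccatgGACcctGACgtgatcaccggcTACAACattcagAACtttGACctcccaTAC
Rfc4: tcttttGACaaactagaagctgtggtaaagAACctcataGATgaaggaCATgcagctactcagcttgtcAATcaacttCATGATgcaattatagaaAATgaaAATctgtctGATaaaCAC
Rrm2: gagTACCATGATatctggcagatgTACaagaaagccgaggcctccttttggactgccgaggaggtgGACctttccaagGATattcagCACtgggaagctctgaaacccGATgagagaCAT

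Over the whole canonical coding sequences, 32 of 135 such codons in Pold1 were NAU, 28 of 41 in Rfc4 and 19 of 52 in Rrm2. The mRNA log2 fold changes of these genes were 0.15 (SE 0.77), -0.08 (SE 0.18) and -0.24 (SE 0.14), each with an interval that includes 0.

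**Figure D5:**
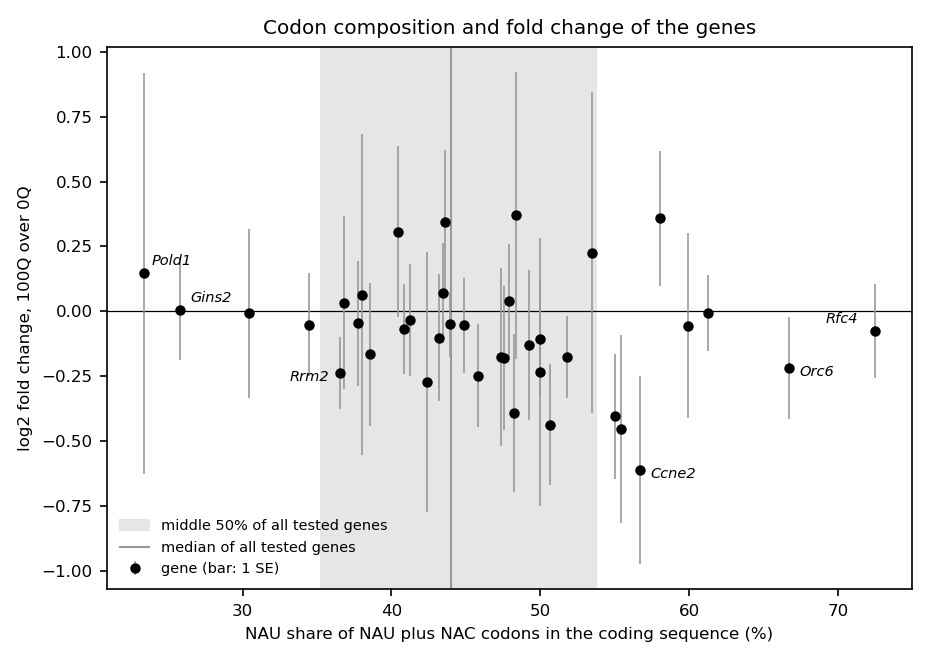
Log2 fold change for 100Q over 0Q against the share of NAU among NAU and NAC codons, in percent, for the 38 genes, each point a gene with a bar of 1 SE either side; the grey band and line mark the quartiles and median over tested genes. Points from 23.4% (Pold1) to 72.5% (Rfc4) lie between -0.61 and 0.37.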

How the data were processed

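Messenger RNA was sequenced in 6 libraries, 3 each of 100Q and 0Q. The authors deposited expected counts per gene, made with FastQC, STAR and RSEM on mm39 (GRCm39) per the submitters' processing notes. Versions, the annotation release and strandedness: not given in the sources used here. RSEM divides ambiguous reads, so 5.51% to 10.5% of a library's values were not whole, and values of overlapping genes are uncertain: exons of 11 of the 38 genes overlap another gene over more than 10% of their bases. Counts were rounded.

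Names and positions came from GENCODE mouse release 39; 502 of 57132 identifiers were unmatched, and 0 columns were left unused. Testing used edgeR 4.0.16 under R 4.3.3 (filterByExpr, TMM, robust glmQLFit, glmQLFTest, two-sided), with Benjamini-Hochberg adjustment over all 10554 genes and a threshold of 0.05. The fit was also run on counts simulated from its own estimates of level and spread. Such a run cannot show that the model suits these cultures. CPM values are TMM-scaled. Promoters are from RefSeq on GRCm38.p6; coding sequences are from GRCm39.

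The members, their roles and all lists were chosen with earlier results of these data known. Members named with per-library values were, per role, the most abundant per length and the one with the smallest p, the 5 with the smallest p of all, Mcm2 to Mcm7 and those whose groups did not overlap. Prim2 and Rrm1 were added after their values were seen. Of other lists, the most abundant gene and the 2 with the smallest p were named. Alternatives were DESeq2 1.42.0, limma-voom 3.58.1, other scalings and filters, the replicate number as a block, thinning of 100Q replicate 3 and each library left out.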

Additional observations from a re-analysis of the deposited data

How the results depend on the processing

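In each setting run, including every library left out in turn, 0 of the 38 genes were called. Over all genes the count was 0 with every other setting, and 0 to 2 when a library was left out: 2 without 0Q replicate 1 and 1 without 0Q replicate 2. The members' median log2 fold change of -0.06 stayed between -0.07 and -0.03 under other tools, scalings and filters. With a library left out it was -0.12 to -0.04, at -0.12 without 0Q replicate 2 and -0.11 without 100Q replicate 3. The count of members with estimates below 0, 27 in the main setting, was 24 to 28 under other tools, scalings and filters. It was 24 to 29 with a library left out. Members whose groups did not overlap numbered 3 in the main setting. They numbered 1 with library totals alone (Rrm2) and 2 with upper-quartile scaling or a thinned 100Q replicate 3 (Mcm3 and Mcm4). With a library left out they numbered 4 to 9, as smaller groups overlap less often. The share of all tested genes apart, 8.24%, was taken in the main setting only. The counts in the other settings therefore have no such share beside them and cannot be read as high or low. The summed difference of -168 CPM became -109 CPM with library totals alone, a scaling on which the summed levels of the groups lay just apart. It ran from -244 to -72.1 CPM with a library left out, at -72.1 CPM without 0Q replicate 1 and -101 CPM without 100Q replicate 2. Leaving out libraries for these counts of groups apart and for the sum, and canonical transcript lengths, were chosen after seeing the data.

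With the replicate number as a block, 0 of 10554 genes and 0 members were called, 421 genes had an unadjusted p under 0.05, and the members' median was -0.07. Deviations of same-numbered libraries correlated at 0.03, 0.08 and -0.01. Replicates 1 and 2 of 100Q correlated best with the 0Q library of their own number, while 100Q replicate 3 correlated best with 0Q replicate 1, at 0.09. Values this small cannot show whether the numbers pair the cultures. Of the 17 members named by rule, 0 changed sign under the block, 10 of 102 estimates did with a library left out and 1 of 136 did in other settings. Prim1 and Ccne2 had edgeR unadjusted p of 0.0418 and 0.0472 under the block and of 0.0277 and 0.00593 without 100Q replicate 3. Prim1 also had 0.0194 without 0Q replicate 2, and Ccne2 had 0.0376 with no filter on low counts. None of these came with an adjusted call, and no other member had an unadjusted p under 0.05 in any setting run. With a library left out, log2 fold changes ran from -1.21 to -0.29 for Ccne2, -0.65 to -0.30 for Prim1, -0.51 to -0.19 for Mcm4, -0.31 to -0.13 for Rrm2, -0.28 to -0.22 for Mcm3 and 0.14 to 0.53 for Fen1. All 6 members under 10 CPM had intervals reaching past 2-fold; what part depth has in this was not tested.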
